A study of Mus musculus with 9 samples.

Results

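Interferon regulatory factors (IRFs), signal transducers and activators of transcription (STATs) and the genes that interferons switch on were followed in WAT (white adipose tissue) of the epididymal depot, a visceral fat pad, in mice on 3 diets. Members were chosen by gene symbol alone, that is Irf, Stat, Ifi, Ifit, Oas, Gbp, Irgm, Isg and Mx genes with Igtp and Rsad2. Only probes with a gene name could be chosen, and names were held mostly for probes that differed between groups. The rule found 63 named probes of 45 genes among the 45281 probes of the arrays, and 56 probes of 41 genes were kept because they were detected (detection p under 0.05) on at least 3 of 9 arrays. Symbols starting with Irf2bp, which name proteins that bind IRF2, also match the rule. Members with no probe kept were Gbp11, Ifi211, Ifi214 and Mx1.

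The arrays were Illumina MouseWG-6 v2 BeadChips, with 3 RNA samples in each of the LU, HFD and ND groups. Male C57BL/6J mice (spelled C56BL/6J in the strain label) arrived at 4 weeks of age, ate the AIN-76 diet for 1 week, and were then fed for 16 weeks, 10 per group by the labels. LU mice ate the high-fat diet with 0.005% (w/w) luteolin, a plant flavonoid, HFD mice ate that high-fat diet (20% fat and 1% cholesterol by the labels) without luteolin, and ND mice ate a normal diet. LU against HFD therefore differs by luteolin, HFD against ND by the diet, and LU against ND by both. The methods describe pooled RNA without giving the number of mice per pool, so the p-values rest on the spread among RNA samples and not among known single mice. They also give another number of mice and another description of the high-fat diet than the labels.

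Interferons are cytokines released on viral or other danger signals. Type I interferons activate receptors whose kinases phosphorylate STAT proteins, which join IRF9 and bind the interferon-stimulated response element (ISRE), while interferon gamma acts through STAT dimers on the gamma-activated site (GAS). IRFs bind the same kind of element as ISRE and also work downstream of Toll-like receptors, and Irf5 and Irf8 are prominent in macrophages, which gather in fat of obese animals. The products of the induced genes degrade or sense viral RNA (Oas), bind DNA (Ifi200 family), restrict virus entry (Ifitm), bind viral RNA (Ifit) or attack vacuoles of intracellular microbes (Gbp, Irgm1 and Igtp).

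Promoters show what many of these genes share although the rule used names only. The windows were 250 bases before to 50 bases after the RefSeq transcript start in build GRCm38.p6, and 39 of the 45 member genes had one. The ISRE core, GAAA and GAAA separated by any 2 bases and read on both strands, lay in a window of 19 of these 39 genes (48.7%), compared with 3.99% of 27025 genes in the RefSeq table. The GAS letters, TTC and GAA separated by any 3 bases, lay in windows of 10 of the 39 (25.6%), compared with 9.55% of all genes. A match describes letters in the window and is no proof of a bound site, and a window without one says nothing about the factor. In lower case follow the 250 bases before the start of 7 members that the results turn on, with every ISRE core or GAS match in capitals. Oas1g, Ifi205, Ifi207, Isg15 and Igtp hold an ISRE core, Igtp also holds a GAS match beside its core, Irf8 holds GAS matches only, and Irf5 holds neither.
Oas1g, chr5:120887614-120887863, minus strand: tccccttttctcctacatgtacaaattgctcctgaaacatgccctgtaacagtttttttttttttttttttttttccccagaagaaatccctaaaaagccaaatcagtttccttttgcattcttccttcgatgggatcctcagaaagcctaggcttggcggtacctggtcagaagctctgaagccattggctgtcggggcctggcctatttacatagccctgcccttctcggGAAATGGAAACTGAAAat
Ifi205, chr1:174031756-174032005, minus strand: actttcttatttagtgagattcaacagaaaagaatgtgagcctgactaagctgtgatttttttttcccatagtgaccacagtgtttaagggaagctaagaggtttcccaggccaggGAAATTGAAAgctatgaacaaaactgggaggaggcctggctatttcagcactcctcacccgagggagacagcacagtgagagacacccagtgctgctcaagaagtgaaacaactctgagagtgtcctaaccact
Ifi207, chr1:173741810-173742059, minus strand: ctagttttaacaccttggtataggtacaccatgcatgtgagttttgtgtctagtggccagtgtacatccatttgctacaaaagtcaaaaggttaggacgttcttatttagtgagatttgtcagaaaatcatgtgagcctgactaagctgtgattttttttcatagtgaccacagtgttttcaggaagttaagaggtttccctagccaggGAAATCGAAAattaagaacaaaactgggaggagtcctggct
Isg15, chr4:156200819-156201068, minus strand: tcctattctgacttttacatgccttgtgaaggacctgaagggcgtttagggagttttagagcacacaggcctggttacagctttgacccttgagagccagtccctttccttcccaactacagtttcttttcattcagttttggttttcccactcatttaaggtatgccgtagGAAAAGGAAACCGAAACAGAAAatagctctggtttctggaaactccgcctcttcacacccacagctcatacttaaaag
Igtp, chr11:58199306-58199555, plus strand: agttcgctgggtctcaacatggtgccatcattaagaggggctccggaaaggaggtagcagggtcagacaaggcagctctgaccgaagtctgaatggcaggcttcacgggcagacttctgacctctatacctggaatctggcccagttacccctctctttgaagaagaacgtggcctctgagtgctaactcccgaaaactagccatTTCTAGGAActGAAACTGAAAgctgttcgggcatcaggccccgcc
Irf8, chr8:120736108-120736357, plus strand: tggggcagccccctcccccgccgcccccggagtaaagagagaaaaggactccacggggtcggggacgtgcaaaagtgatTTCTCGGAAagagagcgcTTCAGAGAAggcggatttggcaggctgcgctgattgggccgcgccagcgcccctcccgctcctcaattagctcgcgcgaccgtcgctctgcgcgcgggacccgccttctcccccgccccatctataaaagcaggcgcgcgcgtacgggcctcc
Irf5, chr6:29526375-29526624, plus strand: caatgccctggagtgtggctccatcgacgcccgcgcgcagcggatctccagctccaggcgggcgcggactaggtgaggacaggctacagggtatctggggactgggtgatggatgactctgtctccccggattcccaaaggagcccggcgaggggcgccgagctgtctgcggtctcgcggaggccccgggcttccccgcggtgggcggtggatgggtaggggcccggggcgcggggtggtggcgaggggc
The 2 cores of Oas1g overlap and end 3 bases before the start, and the 3 cores of Isg15 also overlap each other. The core of Ifi207 lies 32 to 41 bases before the start and that of Ifi205, a gene of the same family, 125 to 134 bases before it. A second match of Ifi205 lies after the start and is not shown.

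Signals are given as log2 of the quantile-normalized intensity, and the background level of the arrays was 7.79 to 7.83 on this scale. A probe was called where limma, fitted over all 9 arrays, gave a two-sided adjusted p under 0.05 (Benjamini-Hochberg over 20558 probes). The arrays of a group correlated at 0.994 to 0.998, and 42.2% to 43.8% of all probes were detected. Before normalization the median signal per array was 193 to 197 for LU, 209 to 216 for HFD and 194 to 207 for ND. Adipoq, the adipocyte hormone adiponectin, was at 15.69 or above on every array. Other adipocyte markers were much dimmer, with the probes of Fabp4, Retn, Lpl and Cd36 between 8.19 and 9.63. Brightness of these markers was thus mixed, and the tissue is taken from the labels. Gene names were held only for probes of a table in which the authors had left out most probes with like groups, so shares are also given over the 12300 named probes kept. Irf7, Ifih1, Ifit1 and Usp18 were not analysed here.

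In LU against HFD, 26 of the 56 member probes were called (46.4%), against 28% of all probes and 37.3% of the named ones. Of these 6 were higher in LU (14.6% of all probes and 18.7% of named ones were) and 20 lower (13.4% and 18.7%). The LU and HFD arrays did not overlap at 40 of the 56 member probes, compared with 48.7% of all probes and 59.2% of named ones. In HFD against ND, 27 were called (48.2%), against 37.3% of all probes and 51.7% of the named ones, so that members were called at a share below that of named probes. They were 16 higher in HFD (16.9% of all probes, 24% of named ones) and 11 lower (20.5% and 27.7%). Of the 56, 29 did not overlap, compared with 45.9% of all probes and 59.6% of named ones. In LU against ND, 29 were called (51.8%), against 29.9% of all probes and 39.9% of the named ones. They were 11 higher in LU (14.6% of all probes, 19.6% of named ones) and 18 lower (15.3% and 20.3%). Of the 56, 33 did not overlap, compared with 44.1% of all probes and 54.5% of named ones. Median log2 differences of the members were -0.14, 0.04 and -0.06 in these 3 comparisons, and those of all probes kept were 0.01, -0.02 and -0.01. LU against HFD and HFD against ND share the HFD arrays, so each is described by its own values. Most changes were small, and with a fold change of at least 1.5 required as well 3, 6 and 8 member probes passed. That was 5.36%, 10.7% and 14.3% of members, against 2.33%, 6.26% and 3.37% of all probes. Shares of named probes were not counted at this threshold.

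**Figure D1:**
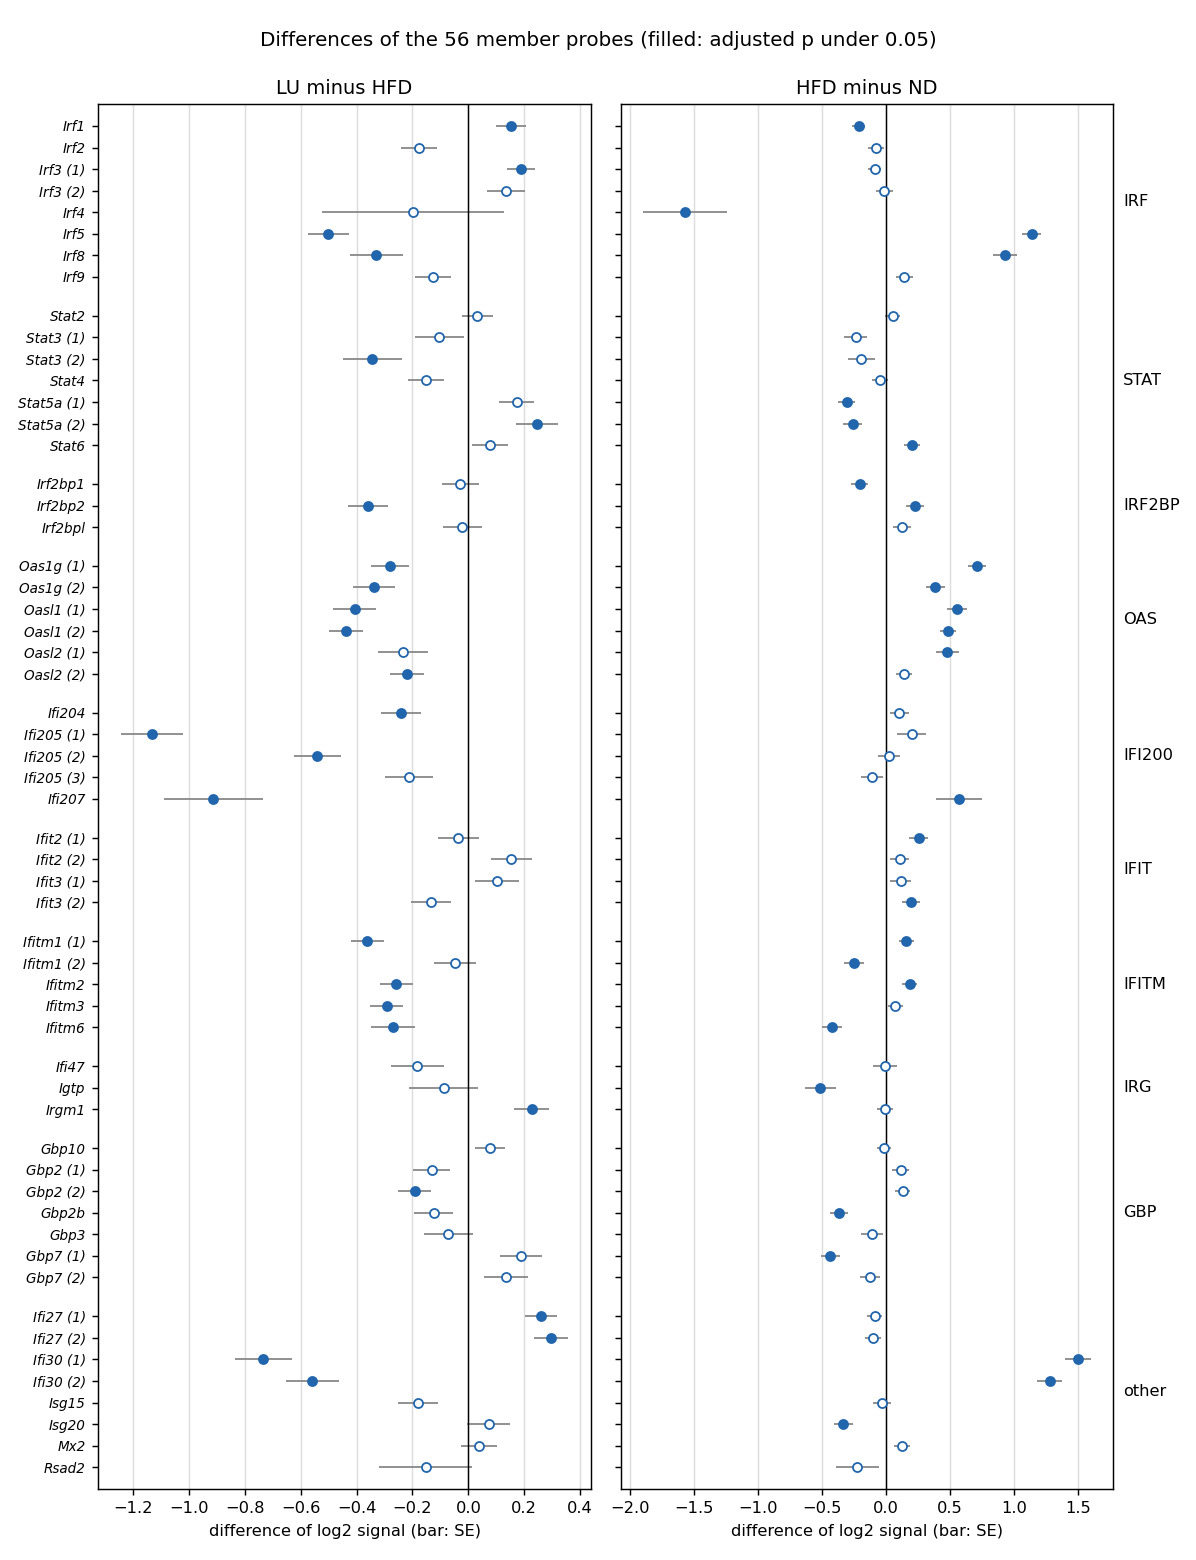
Differences of log2 signal for the 56 member probes, LU minus HFD on the left and HFD minus ND on the right, by family down the page, as limma estimates with bars of 1 SE, filled where the adjusted p was under 0.05 and with probes of a gene numbered from the brightest. Ifi205, Ifi207 and Ifi30 lie farthest left in LU minus HFD, and Ifi30, Irf5 and Irf8 farthest right in HFD minus ND.

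Among the IRFs, Irf5 and Irf8 had lower signals in LU than in HFD and higher signals in HFD than in ND, while Irf4 was lower in HFD and in LU than in ND. Irf5 (probe ILMN_2621752), a factor of Toll-like receptor signalling that marks inflammatory macrophages, had log2 signals of 10.38, 10.22 and 10.32 on the LU arrays, 10.90, 10.82 and 10.70 on the HFD arrays, and 9.74, 9.74 and 9.54 on the ND arrays. The 3 groups did not overlap, with LU between the others. Irf5 was 1.42-fold lower in LU than in HFD (log2 -0.50, SE 0.07, adjusted p = 0.000425) and 2.20-fold higher in HFD than in ND (log2 1.14, SE 0.07, adjusted p = 1.95e-07). It remained higher in LU than in ND (log2 0.63, adjusted p = 7.22e-05), and each of these calls held without any single array.

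Irf8 (probe ILMN_2673369), needed for the monocyte and dendritic cell lineages, had log2 signals of 9.76, 9.92 and 9.89 in LU, 10.27, 10.31 and 9.98 in HFD, and 9.42, 9.23 and 9.11 in ND. Here too the groups did not overlap, but the third HFD array lay near the LU arrays. HFD exceeded ND by log2 0.93 (SE 0.10, adjusted p = 9.08e-06), and LU differed from HFD by log2 -0.33 (SE 0.10, adjusted p = 0.0219). The LU against HFD call ended without LU replicate 1 or 3 or HFD replicate 1 or 2 (log2 -0.35 to -0.27, adjusted p = 0.0506 to 0.0935), with neqc background correction (adjusted p = 0.059) and with median scaling (adjusted p = 0.0696).

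Macrophage markers moved alongside Irf5, Irf8 and Ifi30. Of 13 measured among 15 listed, 13 were lower in LU than in HFD (median -0.56), and 11 were higher and 1 lower in HFD than in ND (median 0.86). Summed over the list, the log2 level ranged between 15.16 and 15.35 in LU, 15.68 and 15.84 in HFD, and 14.77 and 14.92 in ND, in the same order as these 3 genes. Single markers were mixed in LU against ND, with 7 higher, 3 lower and 3 not called (median 0.21). Over all probes kept, 14.6% were called higher and 13.4% lower in LU against HFD (18.7% and 18.7% of named ones). In HFD against ND these shares were 16.9% and 20.5% (24% and 27.7%), and in LU against ND 14.6% and 15.3% (19.6% and 20.3%). The marker lists that follow stand beside the same shares, and no list was tested against them. Adgre1, the macrophage antigen F4/80, was lower in LU than in HFD (log2 -0.81, adjusted p = 6.77e-05) and higher in HFD than in ND (log2 1.66, adjusted p = 3.13e-08). Markers were read at the brightest probe kept, and further kept probes, which Adgre1 has, were not examined. In whole tissue, fewer cells of a type and less RNA per cell cannot be told apart, and the part of macrophage number in these results was not tested. Of the T cell markers (5 of 11 measured), LU was lower than HFD for 3, and HFD was higher than ND for 1, and of 12 adipocyte markers 8 were higher in LU than in HFD, while 8 were lower and 1 higher in HFD than in ND. Dendritic cell markers, 5 of 8 measured, were 2 higher and 3 lower in HFD than in ND. Of the further lists, the B cell marker measured (1 of 7) was lower in LU than in HFD and higher in HFD than in ND, natural killer cell markers (3 of 7) were 1 higher and 1 lower in LU than in HFD and 1 lower in HFD than in ND, and endothelial markers (7 of 9) were 1 lower in HFD than in ND, with none called in LU against HFD.

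Irf4 (probe ILMN_2623699), a factor of lymphocytes and alternatively activated macrophages that adipocytes also induce on fasting, had log2 signals of 8.43, 8.46 and 8.51 in LU, 8.63, 8.76 and 8.61 in HFD, and 9.47, 11.34 and 9.89 in ND. The second ND array stood 1.45 above the next one, farther than the other 2 ND arrays were from each other (0.43). Irf4 was lower in HFD than in ND by log2 -1.57 (SE 0.33, adjusted p = 0.00222) and in LU than in ND by log2 -1.77 (adjusted p = 0.00175). Without that array the differences were -1.01 (adjusted p = 1.13e-05) and -1.21 (adjusted p = 1.01e-05). The LU and HFD arrays did not overlap either, but their difference of -0.20 was not called (adjusted p = 0.689). In a fit of the LU and HFD arrays alone, in which the spread of ND does not enter, that difference had an adjusted p of 0.0152, and without ND replicate 2 it was 0.112.

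The other IRFs moved little. Irf1, an activator induced by interferon gamma, had log2 signals of 12.59, 12.55 and 12.63 in LU, 12.44, 12.47 and 12.40 in HFD, and 12.69, 12.67 and 12.59 in ND. HFD was below ND (log2 -0.21, SE 0.05, adjusted p = 0.00681) and LU above HFD (log2 0.15, adjusted p = 0.0486). The call against HFD ended without any 1 of the 6 LU and HFD arrays (0.13 to 0.17, adjusted p = 0.0757 to 0.152). Irf2, a repressor that competes with Irf1, was lower in LU than in ND (log2 -0.25, adjusted p = 0.00977). Irf3, the factor that starts interferon beta transcription, was higher in LU than in HFD at its brighter probe (log2 0.19, adjusted p = 0.0144), a call that ended without LU replicate 3 or HFD replicate 2 (adjusted p = 0.0506 to 0.0585). Its dimmer probe differed by 0.14 (adjusted p = 0.164). Irf9, a DNA-binding partner of STAT proteins, was called in none of the comparisons, with differences of -0.13, 0.14 and 0.02 in LU against HFD, HFD against ND and LU against ND.

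**Figure D2:**
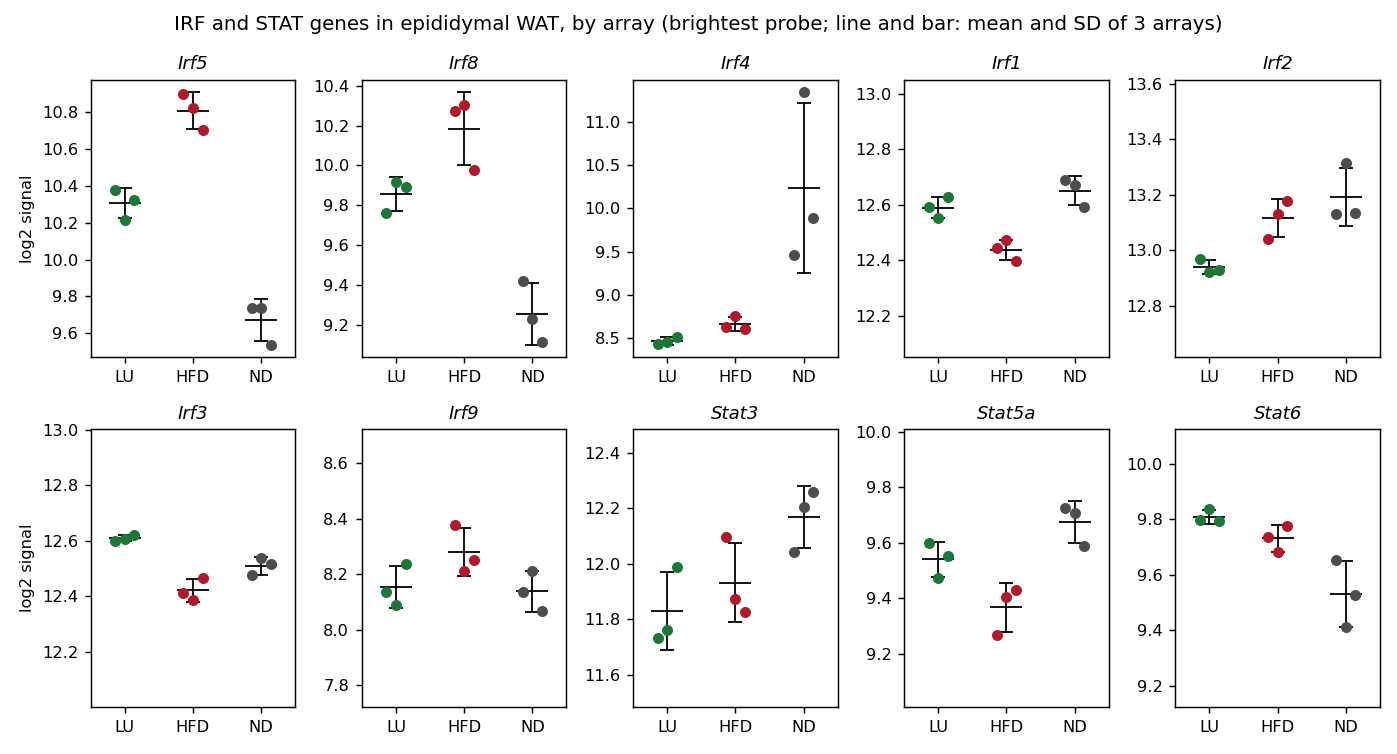
Log2 signal of IRF and STAT genes on each array, with LU, HFD and ND from left to right in every panel, a vertical scale of its own per panel, points for arrays, and lines with bars for the mean and SD of 3 arrays. Irf5 and Irf8 step down in the order HFD, LU, ND without overlap, and a single ND array of Irf4 stands at 11.34.

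No STAT moved by more than 0.53 on the log2 scale. Stat3, activated by interleukin 6 and leptin, had at its dimmer probe (ILMN_2589790) log2 signals of 10.65, 10.71 and 10.84 in LU, 11.31, 10.91 and 11.02 in HFD, and 11.08, 11.43 and 11.29 in ND. LU lay below both other groups there. LU was below ND at both probes (log2 -0.53, adjusted p = 0.00265, and -0.34, adjusted p = 0.0124), and the call of the brighter probe ended without LU replicate 1 or 2 (adjusted p = 0.0541 to 0.0613). Against HFD the dimmer probe was called (log2 -0.34, SE 0.11, adjusted p = 0.0285) and the brighter was not (-0.10, adjusted p = 0.418). The LU against HFD call ended without LU replicate 1, LU replicate 2 or HFD replicate 1 (-0.33 to -0.23, adjusted p = 0.0874 to 0.115).

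Stat5a, which carries growth hormone and prolactin signals and acts in fat cell formation, had at its brighter probe (ILMN_2976191) log2 signals of 9.60, 9.47 and 9.55 in LU, 9.27, 9.40 and 9.43 in HFD, and 9.73, 9.71 and 9.59 in ND. HFD was the lowest group, with no overlap with either other. Both probes were lower in HFD than in ND (log2 -0.31, adjusted p = 0.00218, and -0.26, adjusted p = 0.0164), and only the dimmer was called in LU against HFD (log2 0.25, adjusted p = 0.0289, against 0.17 and 0.0608 at the brighter). The calls of the dimmer probe ended without any of 5 LU and HFD arrays in LU against HFD (0.19 to 0.27, adjusted p = 0.0505 to 0.117) and without HFD replicate 1, ND replicate 1 or ND replicate 2 in HFD against ND (-0.23 to -0.20, adjusted p = 0.0518 to 0.0747).

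Stat6, the factor of interleukin 4 signalling, was higher in LU than in ND (log2 0.28, SE 0.06, adjusted p = 0.00616) and higher in HFD than in ND (log2 0.20, adjusted p = 0.0252). The HFD against ND call ended without any of 4 arrays (HFD replicate 1 or 3, ND replicate 2 or 3, adjusted p = 0.051 to 0.0868). Stat4, which carries interleukin 12 signals, was close to background and lower in LU than in ND (log2 -0.20, adjusted p = 0.0363), a call lost without LU replicate 2 or 3 or ND replicate 2 or 3 (adjusted p = 0.0573 to 0.124). Stat2 was called in no comparison, at 8.90 ± 0.02 in LU, 8.86 ± 0.04 in HFD and 8.81 ± 0.08 in ND (SD, n = 3 each). Of the IRF2 binding proteins, Irf2bp2 was lower in LU than in HFD (log2 -0.36, SE 0.07, adjusted p = 0.00254) and higher in HFD than in ND (log2 0.23, adjusted p = 0.0216), and Irf2bp1 was lower in HFD than in ND (log2 -0.20, adjusted p = 0.0292). These calls against ND ended without HFD replicate 2 or 3 or ND replicate 1 for Irf2bp2 (adjusted p = 0.0549 to 0.0984) and without HFD replicate 1 or 2 or ND replicate 3 for Irf2bp1 (adjusted p = 0.0693 to 0.112).

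The largest difference of any member in HFD against ND after Irf4 was that of Ifi30, an interferon gamma-induced thiol reductase of lysosomes that unfolds antigens for MHC class II. Its brighter probe (ILMN_1228213) had log2 signals of 10.62, 10.45 and 10.68 in LU, 11.51, 11.37 and 11.07 in HFD, and 9.83, 9.92 and 9.71 in ND. As for Irf5, the groups did not overlap and LU lay between. Ifi30 was 2.82-fold higher in HFD than in ND (SE 0.10 on the log2 scale, adjusted p = 3.26e-07) and 1.66-fold lower in LU than in HFD (log2 -0.73, SE 0.10, adjusted p = 0.000338). The dimmer probe gave 1.28 and -0.56 (adjusted p = 5.84e-07 and 0.00107), and all of these calls held without any single array.

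At its brighter probe, each of the 3 OAS genes exceeded ND in HFD (16.9% of all probes and 24% of named ones were higher). All 6 of their probes had a negative difference in LU against HFD, 5 of them called (13.4% of all probes and 18.7% of named ones were lower). Among these 5, the dimmer probe of Oas1g passed the detection filter mainly through the HFD arrays, where it is high. Its call is no independent support. Oas1g, a 2'-5' oligoadenylate synthetase whose product activates RNase L, had at its brighter probe (ILMN_1253808) log2 signals of 9.41, 9.36 and 9.42 in LU, 9.80, 9.70 and 9.54 in HFD, and 9.01, 8.88 and 9.01 in ND. LU again lay between the other groups without overlap. HFD exceeded ND by log2 0.71 (SE 0.07, adjusted p = 5.77e-06), LU differed from HFD by -0.28 (SE 0.07, adjusted p = 0.00981), and LU exceeded ND by 0.43 (adjusted p = 0.000711). The dimmer probe was not detected on any ND array, so it was at least 1.23-fold higher in HFD (adjusted p = 0.00145), where the bound sets the HFD mean against the background level of the ND arrays. It passed the detection filter through 3 HFD arrays and 1 LU array, so this adjusted p is no independent support.

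Oasl1, a synthetase-like protein without enzyme activity that in mice restrains Irf7 translation, had at its brighter probe (ILMN_2793464) log2 signals of 8.33, 8.24 and 8.39 in LU, 8.79, 8.83 and 8.55 in HFD, and 8.22, 8.22 and 8.06 in ND. HFD stood above both other groups. It was lower in LU than in HFD (log2 -0.41, SE 0.08, adjusted p = 0.00225) and higher in HFD than in ND (log2 0.56, SE 0.08, adjusted p = 0.000113), and LU against ND was not called at either probe (0.15 and 0.05, adjusted p = 0.167 and 0.588). Oasl2, a synthetase-like protein, was higher in HFD than in ND at its brighter probe (log2 0.48, adjusted p = 0.00108) but not at the dimmer (0.14, adjusted p = 0.0876). In LU against HFD the call was the reverse of this, with the dimmer probe called (log2 -0.22, adjusted p = 0.0168) and the brighter not (-0.24, adjusted p = 0.0687), and the dimmer probe lost its call without LU replicate 1 or 2 or HFD replicate 1 or 2 (adjusted p = 0.0575 to 0.0617). Probes of the Oas genes can bind transcripts of near-identical copies, which was not tested.

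The IFI200 family, DNA-binding proteins of the innate response encoded side by side in the genome, held the largest difference of any member in LU against HFD. Ifi205 had at its brightest probe (ILMN_2437969) log2 signals of 8.84, 8.79 and 8.88 in LU, 9.92, 9.91 and 10.09 in HFD, and 9.44, 9.96 and 9.91 in ND. LU lay below every HFD and ND array, and HFD overlapped ND. It was 2.19-fold lower in LU than in HFD (log2 -1.13, SE 0.11, adjusted p = 5.09e-05) and 1.91-fold lower in LU than in ND (log2 -0.93, adjusted p = 9.1e-05), and HFD against ND was not called (0.20, adjusted p = 0.186). The second probe gave -0.54 and -0.51 (adjusted p = 0.000679 and 0.000858). The dimmest was not called against HFD (-0.21, adjusted p = 0.0876) and was called against ND (-0.32, adjusted p = 0.0149), a call lost without LU replicate 2 or ND replicate 2 (adjusted p = 0.0519 to 0.0718).

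Ifi207 (probe ILMN_1254577), a neighbour of the same family, had log2 signals of 11.46, 11.40 and 11.49 in LU, 12.41, 12.29 and 12.39 in HFD, and 11.61, 12.38 and 11.39 in ND. The second ND array, which also stood apart for Irf4, was 0.77 above the next and within the HFD range. Ifi207 was 1.88-fold lower in LU than in HFD (log2 -0.91, SE 0.18, adjusted p = 0.00256). HFD against ND was called at log2 0.57 (adjusted p = 0.0234) although the groups overlapped, and this call ended without HFD replicate 1 or 3 or ND replicate 1 or 3 (0.37 to 0.56, adjusted p = 0.0604 to 0.0884). Without ND replicate 2, HFD against ND was 0.86 (adjusted p = 2.72e-06) and LU against ND was -0.05 (adjusted p = 0.653), against -0.34 (adjusted p = 0.167) with all arrays. Ifi204, which was near background and named after its values were seen, was lower in LU than in HFD (log2 -0.24, adjusted p = 0.0263), a call lost without LU replicate 3 or HFD replicate 2 (adjusted p = 0.114 to 0.118). Members of this family are similar in sequence, and binding of a probe to several of them was not tested.

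The 4 IFITM genes, membrane proteins that block fusion of viruses with endosomes, were all lower in LU than in HFD at their brightest probes, by -0.36 to -0.26. Over all probes kept, 13.4% were called lower there, and 18.7% of named ones. The dimmer probe of Ifitm1 differed by only -0.05 in LU against HFD and was not called. Ifitm1 (brighter probe ILMN_1217180) had log2 signals of 12.96, 13.05 and 12.94 in LU, 13.38, 13.33 and 13.32 in HFD, and 13.25, 13.20 and 13.10 in ND. LU was the lowest group, without overlap, at log2 -0.36 against HFD (SE 0.06, adjusted p = 0.000797). The 2 probes of Ifitm1 had opposite signs in HFD against ND, 0.16 (adjusted p = 0.0468) at the brighter and -0.25 (adjusted p = 0.0222) at the dimmer, so the gene has no single direction there. The call of the brighter ended without any of 8 arrays (adjusted p = 0.0543 to 0.161) and that of the dimmer without HFD replicate 2, ND replicate 1 or ND replicate 2 (adjusted p = 0.0681 to 0.0913).

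Ifitm6 (probe ILMN_1218181), whose expression is restricted to fewer tissues, had log2 signals of 8.77, 8.81 and 8.81 in LU, 9.01, 9.13 and 9.07 in HFD, and 9.66, 9.50 and 9.30 in ND. Its order thus differed from that of Irf5 and Ifi30, with ND highest, HFD between and LU lowest. Ifitm6 was lower in HFD than in ND (log2 -0.42, SE 0.08, adjusted p = 0.00108) and in LU than in ND (log2 -0.69, adjusted p = 6.22e-05). The LU against HFD difference of -0.27 (adjusted p = 0.0223) lost its call without any of 5 LU and HFD arrays (adjusted p = 0.0525 to 0.0834). Ifitm2 and Ifitm3, named after their values were seen, differed by log2 -0.26 (adjusted p = 0.00617) and -0.29 (adjusted p = 0.00321) in LU against HFD.

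Ifit2 and Ifit3 bind viral RNA and stop its translation. In LU against HFD none of their 4 probes was called (-0.13 to 0.15), against 28% of all probes and 37.3% of named ones. In HFD against ND each gene had 1 probe called, Ifit2 at log2 0.25 (adjusted p = 0.0148) and Ifit3 at 0.20 (adjusted p = 0.0498). The first call ended without HFD replicate 1 or ND replicate 3 (adjusted p = 0.0581 to 0.059) and the second without any of 8 arrays (adjusted p = 0.0662 to 0.17). In LU against ND both Ifit2 probes were called (log2 0.22 and 0.26, adjusted p = 0.0384 and 0.0199), losing the call without LU replicate 1 or 2 or ND replicate 3 in each case and, for the first, also without HFD replicate 2 or ND replicate 2.

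The immunity-related GTPases and guanylate-binding proteins are GTPases induced by interferon gamma that act on vacuoles of microbes. In HFD against ND, 1 of 3 and 2 of 7 of their probes were called (33.3% and 28.6%). These shares lay below the 37.3% of all probes and 51.7% of named ones. The called probes were all lower in HFD, as were 20.5% of all probes and 27.7% of named ones. Among them, the probe of Gbp2b passed the detection filter only through the ND arrays, so its direction is no independent support. Igtp (probe ILMN_2593554) had log2 signals of 10.37, 10.42 and 10.32 in LU, 10.71, 10.42 and 10.24 in HFD, and 11.25, 10.78 and 10.88 in ND. The ND arrays lay above all others, while LU and HFD overlapped. It was lower in HFD than in ND (log2 -0.51, SE 0.12, adjusted p = 0.00585) and in LU than in ND (log2 -0.60, adjusted p = 0.00344), and LU against HFD was not called (-0.09, adjusted p = 0.637). Irgm1, another of these GTPases, was higher in LU than in HFD (log2 0.23, SE 0.06, adjusted p = 0.0164) and than in ND (log2 0.22, adjusted p = 0.0182). These calls ended without LU replicate 1 (0.19, adjusted p = 0.0784, and 0.18, adjusted p = 0.0874), and the second also without ND replicate 2 (0.17, adjusted p = 0.0614).

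Gbp7 (brighter probe ILMN_2860645) had log2 signals of 8.92, 9.09 and 9.24 in LU, 8.90, 8.88 and 8.90 in HFD, and 9.39, 9.27 and 9.33 in ND. ND was highest and HFD lowest, and the 3 LU arrays were spread between them. HFD was below ND (log2 -0.43, SE 0.07, adjusted p = 0.000567) and so was LU (log2 -0.25, adjusted p = 0.0254), a call lost in LU against ND without LU replicate 1 or 2 or ND replicate 1 (adjusted p = 0.0657 to 0.117). The dimmer probe was called in no comparison (0.14, -0.12 and 0.01 in LU against HFD, HFD against ND and LU against ND). Gbp2b was not detected on any LU or HFD array and was at least 1.14-fold lower in both than in ND (adjusted p = 0.000358 for LU and 0.00144 for HFD). It passed the detection filter only through the 3 ND arrays, where it is high, so these adjusted p-values are no independent support. The dimmer probe of Gbp2 was not detected in LU and was at least 1.12-fold lower there than in HFD (adjusted p = 0.0265), while the brighter, at 12.50 ± 0.08 in LU, 12.63 ± 0.06 in HFD and 12.52 ± 0.11 in ND (SD, n = 3 each), was called in no comparison. The call of the dimmer probe ended without any of 5 LU and HFD arrays (adjusted p = 0.0683 to 0.108). That probe passed the detection filter with 3 HFD and 2 ND arrays.

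**Figure D3:**
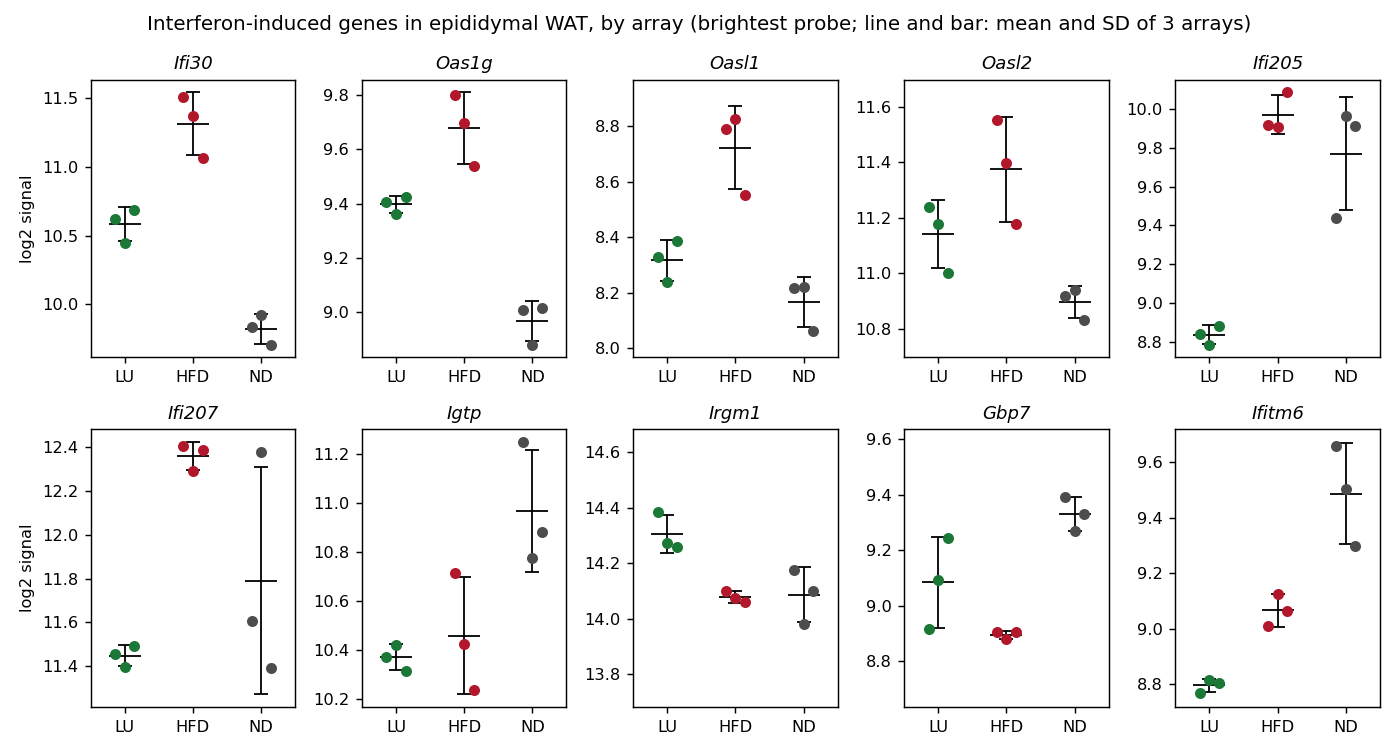
Log2 signal of interferon-induced genes on each array, at the brightest probe, with LU, HFD and ND from left to right, a vertical scale of its own per panel, points for arrays, and lines with bars for the mean and SD of 3 arrays. Ifi30, Oas1g and Oasl1 are highest in HFD, Ifi205 is lowest in LU, and Igtp, Gbp7 and Ifitm6 are highest in ND.

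Among the remaining members, Isg20, an exonuclease of single-stranded RNA, was lower in HFD than in ND (log2 -0.33, SE 0.08, adjusted p = 0.00438) and in LU than in ND (log2 -0.26, adjusted p = 0.0232), and the LU against ND call was lost without LU replicate 1 or 3 or ND replicate 2 (adjusted p = 0.0823 to 0.0949). Isg15, the ubiquitin-like product that interferons strongly induce, had log2 signals of 8.89, 9.01 and 8.95 in LU, 9.10, 9.12 and 9.18 in HFD, and 9.21, 9.28 and 9.0 in ND. HFD and ND overlapped, and LU lay below HFD but overlapped the lowest ND array. It was called only in LU against ND (log2 -0.21, adjusted p = 0.0427), and 8 of the left-out arrays ended that call (adjusted p = 0.0525 to 0.15). Ifi27, a small mitochondrial and nuclear membrane protein named after its values were seen, was higher in LU than in HFD at both probes (log2 0.30, adjusted p = 0.00369, and 0.26, adjusted p = 0.00488).

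Called in no comparison were 12 probes, with differences of -0.38 to 0.22 over the 3 comparisons, and 8 genes had no probe called at all. The 6 brightest of these probes were those of Gbp2 (brighter probe), Irf2bpl, Ifit3 (brighter probe), Gbp3, Rsad2 and Ifi47. Rsad2, the antiviral enzyme viperin, had log2 signals of 10.64, 10.58 and 10.57 in LU, 10.59, 10.93 and 10.73 in HFD, and 11.11, 11.35 and 10.46 in ND, so the ND arrays alone spanned more than the difference between any groups. Of the 14 genes with several probes kept, 3 (Ifi27, Ifi30 and Oasl1) had probes of the same sign and call in all comparisons, and 11 had probes that differed in sign or call in at least 1.

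Genes with and without the promoter letters were found in both directions. Of 17 measured genes with an ISRE core, 3 were higher and 3 lower in HFD than in ND at the brightest probe, compared with 9 higher and 6 lower of 20 without one. In LU against HFD the counts were 1 higher and 5 lower of 17, and 2 higher and 7 lower of 20. Of the 10 with GAS letters, 2 were higher and 6 lower in HFD than in ND (median -0.21), and of the 27 without them 10 were higher and 3 lower (median 0.11). Irf8, whose window holds GAS letters, was among the 2 higher ones, and the 6 lower ones were Igtp, Gbp7, Irf1, Irf2bp1, Isg20 and Ifitm6. In LU against HFD the GAS counts were 1 higher and 3 lower of 10 (median -0.06). Without GAS letters they were 2 higher and 9 lower of 27 (median -0.15). Over all probes, 16.9% were higher and 20.5% lower in HFD against ND (24% and 27.7% of named ones). In LU against HFD these shares were 14.6% and 13.4% (18.7% and 18.7%). Irf5 and Ifi30, which had the largest rises in HFD, held neither motif in their windows. These are descriptions of the members, and no test was made of them.

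Other genes of the pathway came from a list of 96, of which 56 were measured, and those named here were chosen after their values were seen. Each was read at its brightest probe kept. Further kept probes, which Ifngr2, Il10rb, Jak1, Ptpn6 and Ciita have, were not examined. In LU against HFD 8 were higher and 10 lower (median -0.04), in HFD against ND 28 were higher and 9 lower (median 0.14), and in LU against ND 19 were higher and 3 lower (median 0.08). Over all probes kept, the medians were 0.01, -0.02 and -0.01. The share of the list called in LU against HFD was 32.1%, which lies between the 28% of all probes and the 37.3% of named probes called. In HFD against ND it was 66.1%, against 37.3% of all probes and 51.7% of named ones, and in LU against ND 39.3%, against 29.9% and 39.9%. With median scaling the median in LU against HFD was 0.01, with 10 higher and 6 lower. The LU against HFD count of 18 was 9 without LU replicate 2 and 11 without HFD replicate 2.

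Ligands were hardly measurable, with 2 of 17 on the list, and neither the interferon beta gene Ifnb1 nor the interferon gamma gene Ifng had a named probe kept. Among the receptors, Ifngr2, the signalling chain of the interferon gamma receptor, was higher in LU than in HFD (log2 0.42, SE 0.09, adjusted p = 0.0057) and Il10rb, a chain shared with the interferon lambda receptor, was higher in HFD than in ND (log2 0.60, adjusted p = 3.64e-05). Jak1, a kinase of all interferon receptors, had log2 signals of 10.73, 10.83 and 10.68 in LU, 10.27, 10.20 and 10.37 in HFD, and 11.11, 10.93 and 11.07 in ND. HFD was the lowest group and ND the highest, without overlap. It was lower in HFD than in ND (log2 -0.76, SE 0.07, adjusted p = 2.66e-06) and higher in LU than in HFD (log2 0.47, SE 0.07, adjusted p = 0.000379), opposite in sign to Irf5 in both.

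Of the inhibitors, Ptpn6, the phosphatase SHP-1 of blood cells, was higher in HFD than in ND (log2 1.05, adjusted p = 1.58e-06) and lower in LU than in HFD (log2 -0.48, adjusted p = 0.00178). Cish, a suppressor of STAT5 signalling, was lower in HFD than in ND (log2 -1.17, SE 0.28, adjusted p = 0.00586). Its LU against HFD difference of 0.74 was not called (adjusted p = 0.0704). Sensors of nucleic acids were 6 higher and 2 lower of 11 in HFD against ND (16.9% and 20.5% of all probes, 24% and 27.7% of named ones). Among them was Tlr7, an endosomal receptor of single-stranded RNA. Tlr7 was higher in HFD by log2 0.83 (adjusted p = 2.18e-06) and differed between LU and HFD by -0.69 (adjusted p = 6.55e-05).

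Further interferon-induced genes were 17 higher and 4 lower of 30 in HFD against ND (16.9% and 20.5% of all probes, 24% and 27.7% of named ones). In LU against HFD 4 were higher and 5 lower, near the shares of all probes (14.6% and 13.4%) and of named ones (18.7% and 18.7%). Lgals3bp, a secreted glycoprotein, rose in HFD against ND (log2 0.67, adjusted p = 2.04e-06) with a LU against HFD difference of -0.03 (adjusted p = 0.779). Ciita, the master activator of MHC class II genes, was higher in HFD than in ND (log2 0.54, adjusted p = 1.43e-05) and lower in LU than in HFD (log2 -0.31, adjusted p = 0.00198). Cxcl9, a chemokine induced by interferon gamma, was lower in HFD than in ND (log2 -0.75, adjusted p = 1.24e-05) and higher in LU than in HFD (log2 0.29, adjusted p = 0.0171), a call against HFD lost without LU replicate 1 or 2 or HFD replicate 1 or 3 (0.26 to 0.28, adjusted p = 0.0512 to 0.0716).

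**Figure D4:**
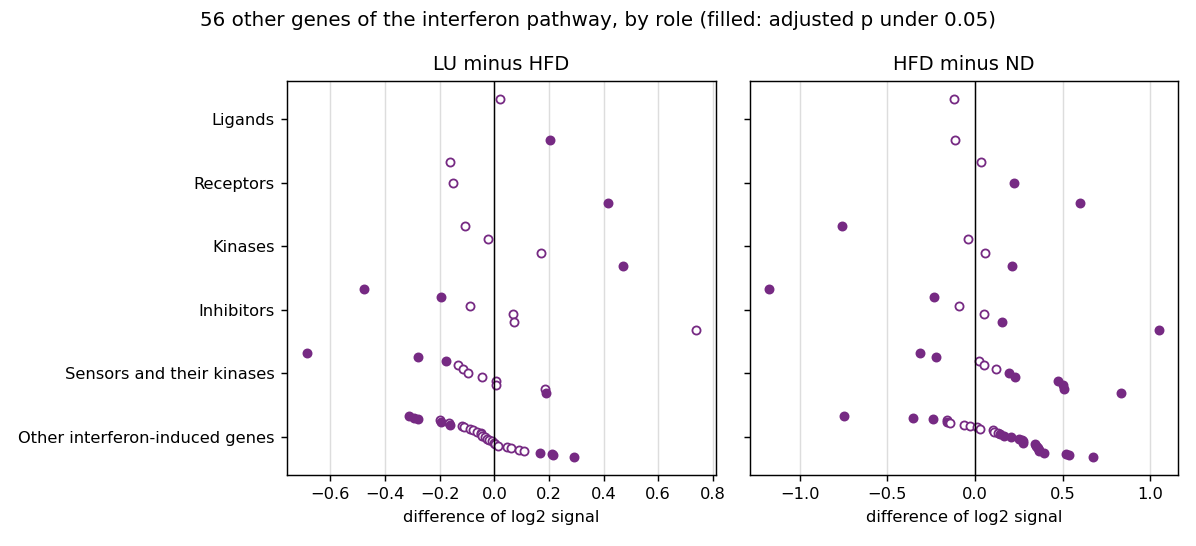
Differences of log2 signal for 56 other genes of the pathway, LU minus HFD on the left and HFD minus ND on the right, by role down the page, with a point per gene at its brightest probe, filled where the adjusted p was under 0.05. In HFD minus ND, 17 of 30 other interferon-induced genes and 6 of 11 sensors lie to the right of 0 with filled points. Over all probes 16.9% were called higher there, and 24% of named ones.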

How the data were processed

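RNA of LU, HFD and ND epididymal WAT was hybridised to 3 arrays per group. The authors deposited a non-normalized table with a signal intensity and a detection p-value per probe and array, and a normalized table on the log2 scale that served as an alternative. The authors inspected the scans in BeadStudio, per the methods, and the scanner and the genome build are not given in the sources used here. Intensities were quantile-normalized over the 9 arrays with limma 3.58.1 in R 4.3.3 and log2-transformed, without background subtraction. Of 45281 probes, 20558 were kept, each with detection (p under 0.05) on 3 or more arrays. One limma fit over all arrays gave LU against HFD, HFD against ND and LU against ND, and adjustment was by Benjamini-Hochberg over all probes kept. This replaced the rank product and t-test of the methods, which were run as alternatives. Where a group was undetected on all its arrays, the fold is a lower bound.

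Names came from the platform annotation of the authors' normalized table, in which 14264 of 17128 probes have 1 gene and 7 several. That table holds 12.5% of 20570 probes whose group means lay within 0.1 of each other and 98.1% of 2262 whose means lay more than 0.5 apart. Named members therefore favour probes that differ.

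Members and lists were chosen with earlier results of these data known. Named in the text were all IRF and STAT members kept, up to 4 called probes with the largest difference per other family and comparison, genes whose probes disagreed, and the 6 brightest probes never called. Exceptions are marked. Alternatives were neqc, median scaling, the authors' table, the compared groups alone, a replicate block, other filters, a fold change of 1.5, and leaving out each array. Slide could not be a block, since no slide is named in the files. With 3 arrays against 3, an exact permutation test could not go below p = 0.1, and the number of arrays limits the precision. Promoters are from RefSeq.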

Additional observations from a re-analysis of the deposited data

How the results depend on the processing

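Without single arrays, the number of member probes called was 19 to 29 in LU against HFD (26 with all arrays), 21 to 26 in HFD against ND (27) and 17 to 30 in LU against ND (29), with 17 without LU replicate 1 and 19 without LU replicate 2. Of the calls, 16, 17 and 14 held without every array in turn. The rank product of the methods called 5, 5 and 9 member probes (8.93%, 8.93% and 16.1%, against 4.42%, 4.6% and 4% of all probes). The methods' t-test after Benjamini-Hochberg called 18, 9 and 7 (32.1%, 16.1% and 12.5%, against 21.1%, 18.2% and 10.1%). Unadjusted, that t-test called 31, 21 and 28 (55.4%, 37.5% and 50%, against 39.2%, 36.5% and 33.1%). A fold change of at least 1.5 left 3, 6 and 8 (5.36%, 10.7% and 14.3%, against 2.33%, 6.26% and 3.37%). Shares of named probes, which favour probes that differ, were not counted under these alternatives. With the authors' normalized table, which holds the named probes, 28, 28 and 31 members were called (50%, 50% and 55.4%). Of all kept probes in that table, 40.5%, 53.6% and 43.1% were called. No result changed its direction past the threshold.

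Median scaling called 24 (8 higher, 16 lower), 22 (10 higher, 12 lower) and 20 (8 higher, 12 lower), against 6 higher and 20 lower, 16 higher and 11 lower, and 11 higher and 18 lower. It also moved all probes in LU against HFD to 3474 higher and 1869 lower, against 2996 and 2751. With neqc 23 were called in each comparison. The replicate numbers do not pair the arrays (correlations of deviations -0.0992 to 0.0872), and with the replicate number as a block 26, 25 and 29 members were called.

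For the other pathway genes, counted under these settings after seeing the data, 18, 37 and 22 were called. The rank product gave 3, 5 and 2, the t-test after adjustment 15, 23 and 10, and the fold change 1, 7 and 1. Leaving out arrays gave 9 to 19 (9 without LU replicate 2, 11 without HFD replicate 2), 32 to 34 and 16 to 23, and the block 18, 34 and 21. The causes were not tested. Members near background, such as Ifi204, Stat4 and Gbp2b, are measured least precisely.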
